A study of Mus musculus with 5 samples.

Results

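In the mouse testis expression table, 7541 of 55350 rows were named only by an accession of the form used for cDNA clones. This form is 1 or 2 capital letters followed by 5 or 6 digits. Of these rows, 1781 with 1639 names had a mean signal of at least 1 over both RNA libraries, and, in whichever library gave more signal, a standard deviation smaller than the mean. They are called the clone-named transcripts. They made up 6.31% of the 28224 rows of the table that met the same limits. Of the rows left out, 740 missed only the limit on the mean, 597 only that on the spread and 4423 both, and 3063 clone-named rows were listed at 0 in both libraries. No transcript that was kept was at 0 in either library, and 65 were under 1 in wild-type and 62 in knockout testis. Members were thus chosen by their name and selected on the signals of both libraries, so levels and changes are given as a description with no test. Just inside the limit on the mean stood BC147260, AK141527 and AK139634 with mean signals of 1.000, 1.0015 and 1.0035, and just outside it AK134652, BC094226 and AK082553 with 0.9955, 0.996 and 0.997. The ratio of standard deviation to mean was 0.985, 0.987 and 0.993 in DQ685082, AK181029 and AK010824, just inside the limit on the spread, and 1.008, 1.01 and 1.014 in DQ562254, AK198984 and AK012547, just outside it.

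The study asked how TAF7L, a paralogue of a subunit of the general transcription factor TFIID, acts in male germ cells. The RNA came from testes of 3-month-old wild-type mice and of 3-month-old Taf7l knockout males (Taf7l-/Y, lacking the X-linked gene). In each genotype, 6 extracts were pooled in equal amounts, and 1 poly(A) RNA library was made from the pool, with 100 to 200 M reads (1 M being 1e+06) per the labels. Chromatin immunoprecipitation (ChIP) of testis from 10 mice aged 3 months gave 1 library each for TAF7L, for Pol II (RNA polymerase II) and for a control of mixed IgG. The labels call this chromatin wild type, while their protocol mentions both genotypes. All 5 libraries were of whole testis, and pooling removes the spread between animals. Each group is thus 1 library, and no difference has a replicate check. The standard deviations printed here are those of the deposited table. What they were taken over is not defined, and they are read here as technical spread over parts of 1 library. Signals are given for the wild-type library first and for the knockout library second.

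Many clone-based names go back to projects that sequenced cDNA copies of whole transcripts before the genome was fully annotated. Many such transcripts are now listed as long non-coding RNAs, and the adult testis is known for expressing an unusually wide range of them. The form of a name does not show that a sequence is a whole transcript. The origin of the 3303 rows with names that begin with DQ was not examined. Spermatids, the haploid cells that become sperm, pack their chromatin with transition proteins and protamines and store much of their messenger RNA for later translation.

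Taf7l itself was at 13.2 ± 1.56 and 2.04 ± 0.60, lower where the label says knockout. Summed over the table, signal was 1.101e+06 and 1.388e+06. The 15 spermatid markers summed to 68656 and 12377, and each was at least 2-fold lower, although this list was drawn up with earlier results of these data known. Markers of other cells were mixed: 2-fold or more higher were 3 of 12 spermatocyte, 7 of 13 Sertoli cell, 3 of 8 Leydig cell, 3 of 7 macrophage and 3 of 6 peritubular markers, and 2 spermatocyte, 1 Leydig cell and 1 peritubular marker were at least 2-fold lower. Of 12 epididymis markers, 10 were at least 2-fold higher, among them Crisp1 (0.042 and 75.9), and Defb2, listed at 0 and at 23.7. Cst8, the epididymis marker with the highest wild-type signal, was at least 2-fold lower (222 and 87.7). Epididymis markers were thus present in the knockout library, and their part in the results below was not tested. In bulk tissue, fewer cells of a type and less RNA per cell cannot be told apart.

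The promoters of 6 clone-named transcripts are shown first, because they represent the transcripts that were most reduced and those with the most Pol II. The first 5 are the clone-named transcripts among the 10 largest decreases that matched the length of a RefSeq entry to within 1%, and AK016511 had one of the 5 highest Pol II promoter scores. Each runs from 250 bases before to 50 bases after the RefSeq start on GRCm38.p6, 5′ to 3′. Capitals mark matches, on either strand and with overlaps allowed, to 4 promoter motifs. The GC box was searched as GGGCGG and the TATA box as TATAAA. The CCAAT box was searched by its own letters. The core of the cAMP response element, which CREM binds in spermatids, was searched as TGACG. AK016100 is 4930553C11Rik at chr11:39390176-39390475 (minus strand). AK131746 is Itpr3os at chr17:27101401-27101700 (minus strand). AK006139 is 1700019P21Rik at chr1:138876901-138877200 (minus strand). AK006587 is 1700031P21Rik at chr12:52602273-52602572 (minus strand). AK077029 is 4921528I07Rik at chr9:114316979-114317278 (minus strand). AK016511 is 4931440J10Rik at chr14:62760251-62760550 (plus strand).
AK016100: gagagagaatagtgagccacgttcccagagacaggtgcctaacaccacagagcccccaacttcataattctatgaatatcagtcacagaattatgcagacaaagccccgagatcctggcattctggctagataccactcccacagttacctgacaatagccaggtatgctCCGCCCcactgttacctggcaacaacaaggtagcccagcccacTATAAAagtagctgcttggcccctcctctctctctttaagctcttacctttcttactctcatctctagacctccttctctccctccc
AK131746: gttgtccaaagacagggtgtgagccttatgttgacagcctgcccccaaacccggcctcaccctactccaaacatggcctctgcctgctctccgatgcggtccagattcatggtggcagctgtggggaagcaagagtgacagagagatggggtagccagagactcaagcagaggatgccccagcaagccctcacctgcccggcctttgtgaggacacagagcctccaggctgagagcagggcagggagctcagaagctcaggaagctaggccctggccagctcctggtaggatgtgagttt
AK006139: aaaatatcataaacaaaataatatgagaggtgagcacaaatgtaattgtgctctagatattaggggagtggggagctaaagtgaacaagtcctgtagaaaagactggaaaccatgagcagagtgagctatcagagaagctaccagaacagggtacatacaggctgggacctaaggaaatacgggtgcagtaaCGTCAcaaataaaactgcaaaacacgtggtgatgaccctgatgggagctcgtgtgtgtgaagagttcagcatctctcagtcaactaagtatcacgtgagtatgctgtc
AK006587: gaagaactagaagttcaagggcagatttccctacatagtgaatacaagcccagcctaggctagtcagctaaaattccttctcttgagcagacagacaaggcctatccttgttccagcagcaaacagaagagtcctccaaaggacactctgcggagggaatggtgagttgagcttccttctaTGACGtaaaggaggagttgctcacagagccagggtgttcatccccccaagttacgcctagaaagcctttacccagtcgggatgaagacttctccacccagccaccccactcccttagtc
AK077029: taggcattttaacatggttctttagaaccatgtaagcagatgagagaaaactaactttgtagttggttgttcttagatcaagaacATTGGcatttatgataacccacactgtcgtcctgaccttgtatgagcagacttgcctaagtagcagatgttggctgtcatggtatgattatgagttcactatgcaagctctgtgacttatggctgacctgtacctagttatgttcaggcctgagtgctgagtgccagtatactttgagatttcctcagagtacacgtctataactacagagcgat
AK016511: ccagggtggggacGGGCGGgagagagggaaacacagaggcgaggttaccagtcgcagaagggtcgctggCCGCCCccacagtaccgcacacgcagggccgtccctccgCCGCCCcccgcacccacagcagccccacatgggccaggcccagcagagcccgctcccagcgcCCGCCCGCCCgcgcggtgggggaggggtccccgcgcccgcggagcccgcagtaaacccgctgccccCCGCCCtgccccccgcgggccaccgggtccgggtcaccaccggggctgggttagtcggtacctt

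The AK016511 promoter, rich in G and C, held 6 GC boxes and 32 CpG dinucleotides, with 76.7% G and C. The 5 promoters of transcripts that were lower in the knockout held 3 to 5 CpG dinucleotides and 41.3% to 59.7% G and C. Over all 270 matched promoters the median was 48.7% G and C in 80 lower transcripts and 51.3% in the other 190. The median count of CpG dinucleotides was 3 in the lower transcripts and 8 in the others. A GC box was present in 11.2% and 32.1%, and TGACG in 20.0% and 23.7%. A TGACG core was found in the AK006139 and AK006587 promoters, and a TATA box and a GC box in that of AK016100. A match is only a run of letters and shows no bound factor.

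Taken over all clone-named transcripts, loss of signal in the knockout library was more frequent than in the table at large, while the frequency of gain beside the table depended on the setting. The change is log2 of (knockout signal + 1) over (wild-type signal + 1), which understates the change of weakly expressed transcripts, and at least 2-fold is used as the limit. By this limit 277 clone-named transcripts were lower, 15.6% against 6.37% of all rows. At least 2-fold higher were 87, 4.88% against 4.85% of all rows. The median change was 0.06, against 0.37 over all rows. With no limit on the spread, 321 of 2378 clone-named rows were higher and 362 lower. Losses and gains were then closer in number, and no background was taken for that setting. When the knockout signals were multiplied by 0.721, which sets the median of all rows to 0, 467 clone-named transcripts were lower and 17 higher, against backgrounds of 11.3% and 0.514%. The share of lower among all calls moved from 76.1% to 96.5%. The lower transcripts had wild-type signals of 2.11 to 2860, with a median of 18.5, beside a median of 6.63 in the knockout. The ranges of mean ± 1 standard deviation did not overlap in 240 of the 277 lower transcripts (86.6%) and in 51 of the 87 higher ones (58.6%). Over all rows the ranges were apart in 97.2% of the lower and 93.4% of the higher calls, so calls on clone-named transcripts cleared the spread less often. As shares of all transcripts, 13.5% were lower with ranges apart, against 6.19% of all rows, and 2.86% higher, against 4.53%.

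**Figure D1:**
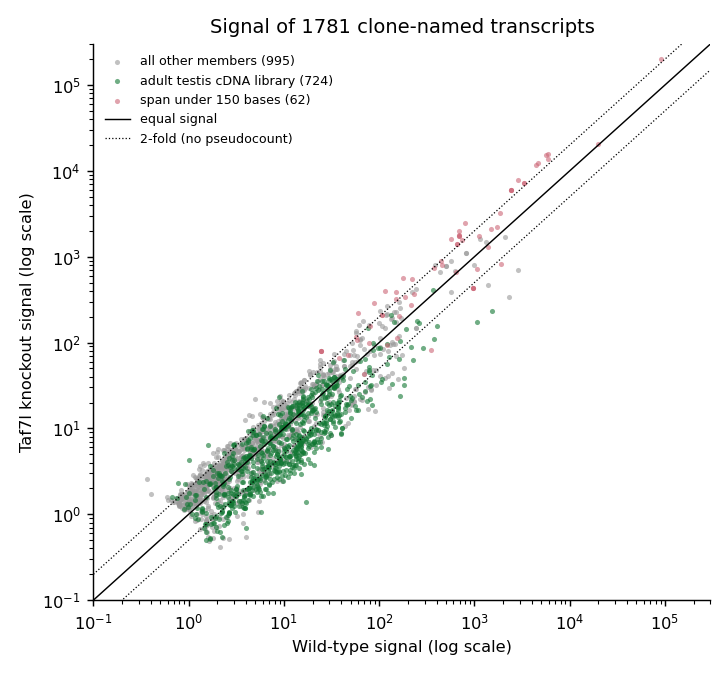
Wild-type signal (x, log scale) against Taf7l knockout signal (y, log scale) for the 1781 clone-named transcripts, 1 point each, with colour for a genomic span under 150 bases, for description from the adult testis cDNA library, and for all others. The solid line marks equal signal and the dotted lines 2-fold. Short transcripts lie mostly above the solid line, and the testis library points reach far below it.

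The 10 largest decreases joined neighbours of the protamine and transition protein genes with testis transcripts at other loci. AK016100, a non-coding transcript at chr11:39121205-39203727 (mm9, as all positions from the table), was at 17.1 ± 3.34 and 1.38 ± 1.09, a change of -2.93. It stood 1289088 bases from the nearest row with a gene symbol. DQ072382, at chr16:10792081-10798155, was at 2285 ± 90.0 and 340.0 ± 23.6, a change of -2.75. Its span covers Prm1 and part of Prm2, which encode the protamines of sperm chromatin. Prm1 itself was at 17005 and 2991, and reads of the overlapping rows cannot be told apart. A second row over the same genes, DQ072380, was at 91.3 ± 8.66 and 16.0 ± 2.66, a change of -2.44.

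BC100504 (1700027A15Rik, chr1:73071185-73072075) was at 1529 ± 71.7 and 230 ± 23.5, a change of -2.73. This non-coding transcript lies 8711 bases from Tnp1, which encodes transition protein 1 and was at 12873 and 2465. AK019796, at chrX:130433254-130435752, was at 1061 ± 141 and 172 ± 59.0, a change of -2.62. Its nearest row with a symbol, 285 bases away, is the tetraspanin gene Tspan6, at 64.8 ± 4.25 and 12.1 ± 1.76. Each transcript was thus lower together with its neighbour.

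AK131746 (Itpr3os, chr17:27236603-27238385) was at 163 ± 11.1 and 23.8 ± 3.33, a change of -2.73. It lies inside the span of Itpr3, which encodes a calcium release channel of the endoplasmic reticulum and was at 3.04 ± 0.35 and 3.27 ± 0.48. The transcript within the gene was lower while the gene's own row was level. AK006659 at chr7:3932760-3934479 was at 182 ± 31.5 and 31.6 ± 13.0, a change of -2.49, with no TAF7L or Pol II score in any class. AK006139 was at 20.7 ± 5.01 and 3.71 ± 2.50, a change of -2.20. AK006587 was at 182 ± 27.8 and 39.0 ± 12.2, a change of -2.19, and was the only one of these 10 with a TAF7L promoter score above 0 (16.1). AK077029 (4921528I07Rik), which RefSeq lists as protein-coding, was at 28.7 ± 1.59 and 5.76 ± 1.09, a change of -2.14. In all 10 transcripts the ranges of mean ± 1 standard deviation of the libraries did not overlap.

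**Figure D2:**
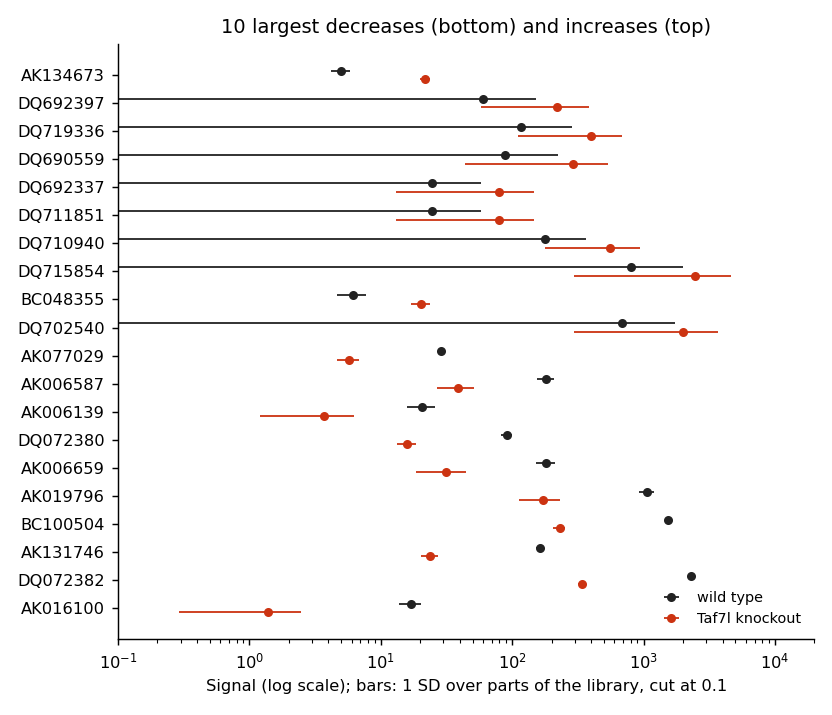
Signal (x, log scale) of the 10 clone names (1 row each) with the largest decrease and the 10 with the largest increase (y). The wild-type library is black and the Taf7l knockout library red. Bars are 1 deposited standard deviation, read as spread over parts of each library, and are cut at 0.1. The bars are apart in every decrease and overlap in most of the increases.

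The increases, ranked with 1 row for each name, were of another kind. AK134673 at chr4:124572229-124595044, described from a brain cDNA, was at 4.99 ± 0.84 and 21.7 ± 1.82, a change of 1.92. BC048355 at chr17:46633738-46636567 was at 6.18 ± 1.57 and 20.3 ± 3.29, a change of 1.57. Both had ranges that did not overlap. The other 8 of the 10 largest increases were DQ rows spanning 62 to 107 bases, with changes of 1.56 to 1.86. DQ692397, for example, was at 59.7 ± 93.5 and 219 ± 162, and in all 8 the ranges of the libraries overlapped. DQ692337 and DQ711851 had identical values, and DQ692337 also had another row with them, so these are not separate increases.

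Genomic span separated these short rows from the other clone-named transcripts. Rows with another name were not split by span, so nothing here is shown to be particular to clone-named rows. Of 62 clone-named transcripts under 150 bases, 33 were at least 2-fold higher, and in 8 of the 33 the ranges were apart. Another 5 were at least 2-fold lower. The limit on the spread applied only in the library with more signal. Rows such as DQ692397 (59.7 ± 93.5 in wild type) thus met it only through the knockout library. Counts of increases among short rows depend on that choice and are no support for a change. After rescaling, 10 of the 62 were higher and 7 lower. As deposited, their median change was 1.04, and their standard deviation was at the median 0.717 of the mean, against 0.23 at 1000 bases and over. Neither TAF7L nor Pol II had a promoter score in 60 of the 62. Of the 64 DQ rows, 24 were higher, 3 of them with ranges apart, and 7 lower. With a span of at least 200 bases, the counts over all clone-named transcripts were 51 higher and 271 lower.

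**Figure D3:**
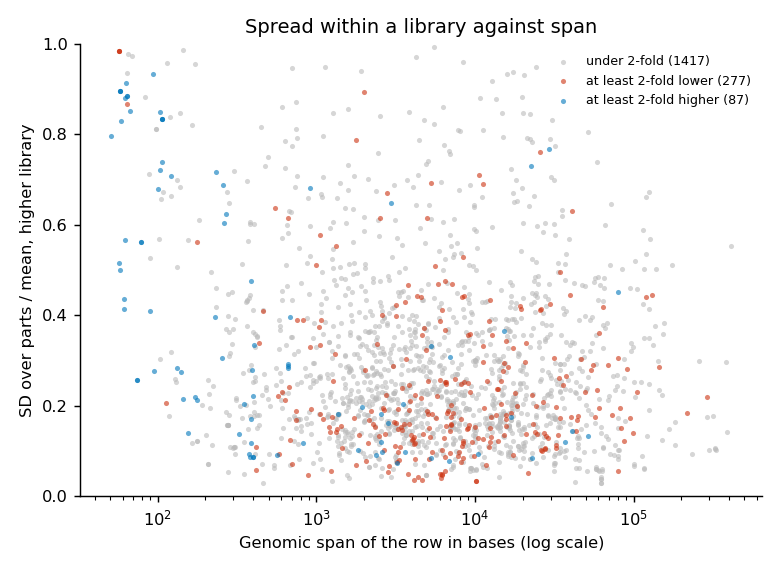
Standard deviation, read as spread over parts, divided by mean (y), against genomic span in bases (x, log scale), for each clone-named transcript. Values are from whichever library gave more signal. Colour marks a 2-fold decrease, a 2-fold increase or neither. Short rows have the widest spread and hold 33 of the 87 increases.

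The highest signals also came from short rows. DQ711560, 51 bases at chr13:53493499-53493549, was at 90682 ± 114631 and 202787 ± 161606. This row alone held 39.8% and 49.4% of the summed clone-named signal. Clone-named transcripts as a whole held 20.7% and 29.6% of the total signal, so a large part of these shares came from 1 row whose libraries overlap. That row met the limit on the spread only in the knockout library. AK181029, 145 bases inside Med16, was level at 19978 ± 15432 and 20655 ± 20379. DQ713469 was at 5913 ± 7996 and 13696 ± 11362. EF437368 was at 1729 ± 330 and 2188 ± 385, and AK209492, partly overlapping Bat3, at 2104 ± 246 and 1698 ± 260. Med16 was at 23.4 and 31.3, so on the deposited scale, whose treatment of length is not stated, the short row inside it was far above its host.

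Some rows repeated the values of others. In all, 37 clone-named rows had the same 4 values as another row. DQ713846 on chromosome 2 and DQ693239 on chromosome 6, described as ribosomal protein S27a, were both at 3271 ± 916 and 7116 ± 1821. The loci behind that signal cannot be told apart. Among rows with no TAF7L or Pol II score in any class, the highest were 3 of the 4 rows of AK219219, the first of them at 5656 ± 2937 and 15364 ± 7675, followed by DQ713846. DQ711460 and DQ564838 shared 2446 ± 2733 and 5914 ± 5299, and DQ569880 was at 1843 ± 2174 and 3229 ± 3025.

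Many of the short rows lay together on chromosome 2, from 150977361 to 151285782, in a window chosen after the values were seen. Of 24 clone-named rows there, 21 with a DQ name, 16 reached a 2-fold increase and 0 a 2-fold decrease. In 1 of the 16, DQ691258 (23.7 ± 4.28 and 56.5 ± 6.58), the ranges were apart. Several repeat one another's values exactly, so they are not independent counts. Apart from DQ691258 and DQ703994, each of the 16 met the limit on the spread only in the knockout library. An example is DQ719336 (116 ± 170 and 399 ± 288). The counts of 16 and 0 thus depend on that limit and are no support for a change. DQ703994 was at 2836 ± 2314 and 7759 ± 4402. The neighbouring symbol rows Gm14151 (16.5 ± 1.15 and 1.89 ± 0.36) and 4921509C19Rik (10.0 ± 0.93 and 1.45 ± 0.40) were lower in the knockout.

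The cDNA library named in a row's description divided the clone-named transcripts by how often they were lower, in a split chosen after the values were seen. Such a description can belong to a related clone rather than the row's own accession. The 724 transcripts described from the adult male testis library of the RIKEN collection had a median change of -0.61, with 215 (29.7%) at least 2-fold lower and 4 higher. The 585 described from other RIKEN libraries had a median of 0.25, with 21 lower and 17 higher. In the 472 with no such library the median was 0.42, with 41 lower and 66 higher. After rescaling the knockout library, 341 of the testis library transcripts were lower and 2 higher, 60 and 3 of those from other RIKEN libraries, and 66 and 12 of those with no such library, at medians of -0.91, -0.09 and 0.03. The sign of the median for other RIKEN libraries thus depends on the scaling. As deposited, the testis library supplied 77.6% of all lower clone-named transcripts. The same order held among rows with another name: 89 of 457 from the testis library (19.5%) were lower, at a median of -0.26, and 42 of 1528 from other RIKEN libraries, at a median of 0.41. The spermatid markers were lower in the same library, and their part in the testis library's decrease was not tested.

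**Figure D4:**
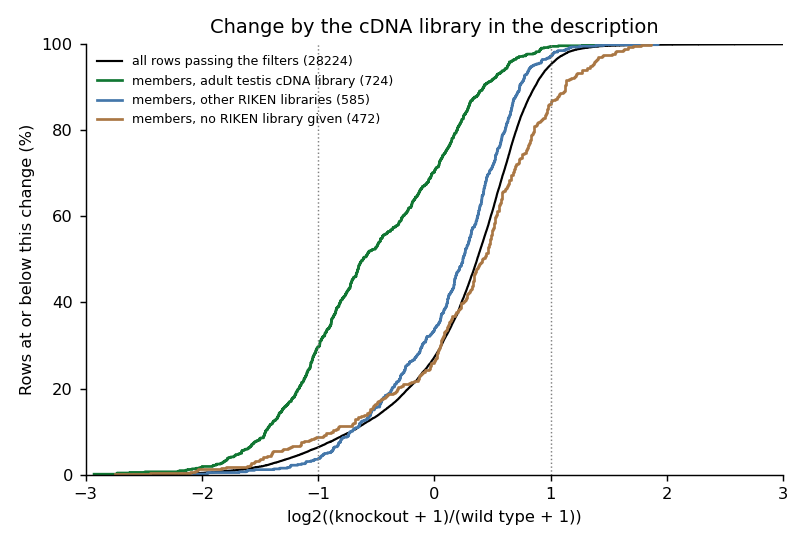
Percent of rows at or below a given log2 change (y) against that change (x), for all 28224 rows and for clone-named transcripts by cDNA library in the description, with dotted lines at 2-fold. The testis library curve lies to the left of the others, with a median of -0.61 against 0.37 for all rows.

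Within the testis library the share at least 2-fold lower was 27.7% to 34.8% in 4 classes of span. It was 27.8% with an overlapping symbol row (76 of 273) and 30.8% without (139 of 451). The 4 testis library transcripts that were higher, named after their values were seen, were AK076914 (1.60 ± 1.07 and 6.37 ± 2.32), AK006971 (1.01 ± 1.47 and 4.31 ± 2.94), AK015544 (8.89 ± 1.12 and 22.9 ± 1.69) and AK006651 (6.05 ± 1.77 and 13.8 ± 2.81). AK076914, AK006971 and AK015544 lie within or across the spans of Ptprn2, Ces7 and Tmem163. In AK006971 the ranges overlapped.

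A RefSeq entry was found for 765 of the 1781, 132 by name and 633 through the clone in the description. Of 510 matched to long non-coding RNAs, 132 were lower (25.9%) and 4 higher (0.784%), at a median change of -0.46. Of 235 matched to protein-coding genes, 20 were lower (8.51%) and 7 higher (2.98%), at a median of 0.28. Of all rows, 6.37% were lower and 4.85% higher. Most matches came through the description that also names the cDNA library. The part of the library split in this contrast was not tested. Among the protein-coding genes matched by name, AF366264 had the lowest change, at 31.3 ± 2.09 and 8.31 ± 1.08. BC048671 was at 66.4 ± 5.29 and 21.6 ± 2.65, and BC049715 at 82.9 ± 5.79 and 27.9 ± 3.74, all 3 chosen after their values were seen. The 1016 without a match had 123 lower (12.1%) and 76 higher (7.48%).

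Transcripts that RefSeq names as lying on the opposite strand of a gene let a transcript be set beside its host. Of 34 such symbols, with 1 row taken for each, 12 reached a 2-fold decrease and 0 a 2-fold increase, at a median change of -0.59. Over all 38 rows with such symbols 15 were lower (39.5%), against 29.7% of testis library transcripts and 6.37% of all rows. The median of the testis library was -0.61, and the part of that library in these decreases was not tested. For the 25 hosts with a mean signal of at least 1 the median change was 0.21, with 2 lower and 0 higher. Of the 10 lower transcripts with such a host, the host was lower in 2 and its change above 0 in 4. Another 3 of these hosts had changes just short of the limit: Fam154a at -0.86, St8sia3 at -0.94 and Lyzl4 at -0.97. Over the 25 pairs the changes had a Pearson's r of 0.45 and a Spearman's rho of 0.58, as a description of pairs that can share reads. Rsf1os1 (AK005667) was at 40.0 and 8.67 beside Rsf1, a chromatin remodelling subunit gene, at 3.22 and 3.88. Cdiptos (BC099577) was at 126 ± 4.41 and 29.2 ± 2.35, beside Cdipt, the phosphatidylinositol synthase gene, at 4.34 and 3.81. The hosts that were lower with their partner were Asb17 (140 and 46.3, Asb17os at 22.5 and 8.76) and Grip1 (15.8 and 6.02, Grip1os1 at 8.34 and 3.09). These pairs were chosen after their values were seen, and since strand is not stated for the counting, reads of a gene and its partner cannot be told apart where their exons overlap.

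Overlap with a symbol row was common. The span of 774 clone-named transcripts overlapped one, and over 621 pairs with an overlapping row at a mean of 1 or more the changes correlated across rows, with Pearson's r of 0.54 and Spearman's rho of 0.61. Overlap was taken from the spans alone. The pairs can share reads where exons overlap, which was not measured, so this is a description. Of 80 pairs in which the clone-named transcript was lower, the overlapping row was lower in 15 and its change above 0 in 36. Of 24 with a higher clone-named transcript, the overlapping row was higher in 12.

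There were 26 clone names with 3 or more rows, and 1540 names had 1 row. Most of the 26 stood for overlapping rows at 1 locus. The 3 rows of BC049635 had changes of -1.40 to -1.38, at 71.3 ± 3.43 and 26.5 ± 2.07 in the highest. The 3 rows of BC049762 had -0.96 to -0.93, and those of BC051142, with the highest signals of these after AK219219, had -0.58 to -0.46. The 3 rows of BC016423, some overlapping Gdi2 over a small part of their span, ran from -0.41 to 0.13. They were the only set with both signs. Rows of 3 repeated names lay on several chromosomes: AK219219 on 3, with changes of 1.40 to 1.44, AK186650 on 5, with 0.96 to 1.13, and AK205379 on 4, with 0.58. AK006024 and AK007159 had 5 and 4 rows at separate sites on chromosome 14, with changes of 0.11 to 0.15 and 0.48 to 0.54. The remaining names had changes between -0.70 and 1.04.

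The ChIP scores, which the choice of transcripts did not use, were less frequent here than in the table at large. The sources used here give neither their definition nor the distances of the promoter, proximal and distal classes, and a score of 0 is read as no assigned signal. TAF7L had a promoter score above 0 in 493 clone-named transcripts (27.7%, against 49.8% of all rows) and Pol II in 997 (56.0%, against 76.3%). TAF7L had a proximal score in 398 (22.3%, against 29.7%) and a distal score in 691 (38.8%, against 49.1%). No class had a score of either factor in 262 (14.7%, against 5.17%). TAF7L and Pol II coincided at 489 promoters, Pol II stood without TAF7L at 508 and TAF7L without Pol II at 4. Overlapping and neighbouring rows share peaks, so these counts are not of independent sites.

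Of the 5 highest TAF7L promoter scores, 3 were shared with a neighbouring gene. BC060988 and AK015392, at Pcif1 (a gene for an RNA cap methyltransferase), both had 531 for TAF7L and 1290 for Pol II. BC060988 was at 9.71 ± 2.78 and 13.3 ± 2.79, and AK015392 at 3.01 ± 0.88 and 6.57 ± 1.38. AK129341 had a TAF7L score of 504 and was level, at 38.3 ± 2.12 and 40.5 ± 2.63. AK017040, 169 bases from the kinase gene Mapk6 and with the same pair of scores (469 and 1140), was at 19.4 ± 2.86 and 17.99 ± 2.58. With the pseudocount, none of these 4 reached 2-fold, AK015392 having a change of 0.92.

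The fifth, BC071253, lies on mitochondrial DNA. It had 481 for TAF7L and 78.3 for Pol II, with signals of 35.4 ± 3.28 and 36.7 ± 2.54. Of the 6 mitochondrial clone-named transcripts, 5 had a TAF7L promoter score and none was 2-fold changed. DQ539915 (158) and AK018753 (267) were 2 of the 4 with TAF7L and no Pol II, beside AK019745 (26.3) and AK019031 (43.7). Mitochondrial DNA is present in many copies per cell, and the IgG library has no column in the score table, so background at these rows was not tested.

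The highest Pol II promoter scores were at transcripts that overlap or adjoin another gene. BC058545, overlapping Ddx5, which encodes an RNA helicase, had 2330 and was at 39.1 ± 3.55 and 41.2 ± 4.13. BC049762 had 1900, 124 bases from the splicing kinase gene Clk4 with the same score, and was at 57.0 ± 3.58 and 28.9 ± 3.40, just under 2-fold. AK016511, overlapping the Integrator subunit gene Ints6, had 1890 and was at 11.3 ± 2.47 and 17.3 ± 3.82. AK007237, 316 bases from the calreticulin gene Calr, had 1790 and was at 19.5 ± 5.58 and 25.6 ± 6.90. AK145430, beside Srsf5, had 1590 and was level at 7.55 in both libraries.

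Promoter class and change went together. With both factors at the promoter, 23 of 489 clone-named transcripts were lower (4.70%), against 393 of 13995 (2.81%) of all rows in that class. With Pol II and no TAF7L, 156 of 508 were lower (30.7%), against 839 of 7543 (11.1%). With neither, 97 of 780 were lower (12.4%) and 69 higher (8.85%). Of all rows with neither, 560 of 6624 were lower (8.45%) and 349 higher (5.27%). The class with neither held 60 of the 62 clone-named transcripts under 150 bases, and 33 of those 62 were higher. Its count of increases thus depends on the limit on the spread and is no support for a change. The median change was 0.20 with both, -0.65 with Pol II alone and 0.21 with neither. After rescaling, the medians were -0.20, -0.94 and -0.14, with 61, 246 and 159 lower and 1, 3 and 13 higher, so the sign of the first and the last depends on the scaling. Of all 277 lower transcripts, 179 had a Pol II promoter score and 24 a TAF7L promoter score. Among all 1781 clone-named transcripts the counts were 997 (56.0%) and 493 (27.7%), against 76.3% and 49.8% of all rows.

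Splitting by cDNA library as well, a split chosen after the values were seen, kept that order. Among testis library transcripts 17 of 176 with a TAF7L score were lower (9.66%), 128 of 336 with Pol II alone (38.1%) and 70 of 212 with neither (33.0%). Among the others the counts were 7 of 317, 28 of 172 (16.3%) and 27 of 568. In the testis library the transcripts lacking a TAF7L promoter score were therefore the more often reduced, with or without Pol II. After rescaling, 33 (18.8%), 207 (61.6%) and 101 (47.6%) of the testis library classes were lower. Of the 15 spermatid markers, 2 had a TAF7L promoter score and 10 a TAF7L score in some class, and 14 had a Pol II promoter score. Of the 277 lower clone-named transcripts, 102 had a TAF7L score in some class. That share was not taken over all rows, so neither count of scores in some class is read as a difference. A TAF7L proximal score was present in 39 of the 277 and a distal one in 73. Among all 1781 clone-named transcripts these were 398 (22.3%) and 691 (38.8%), against 29.7% and 49.1% of all rows. A single TAF7L library without a replicate sets these classes, and no difference between them was tested.

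**Figure D5:**
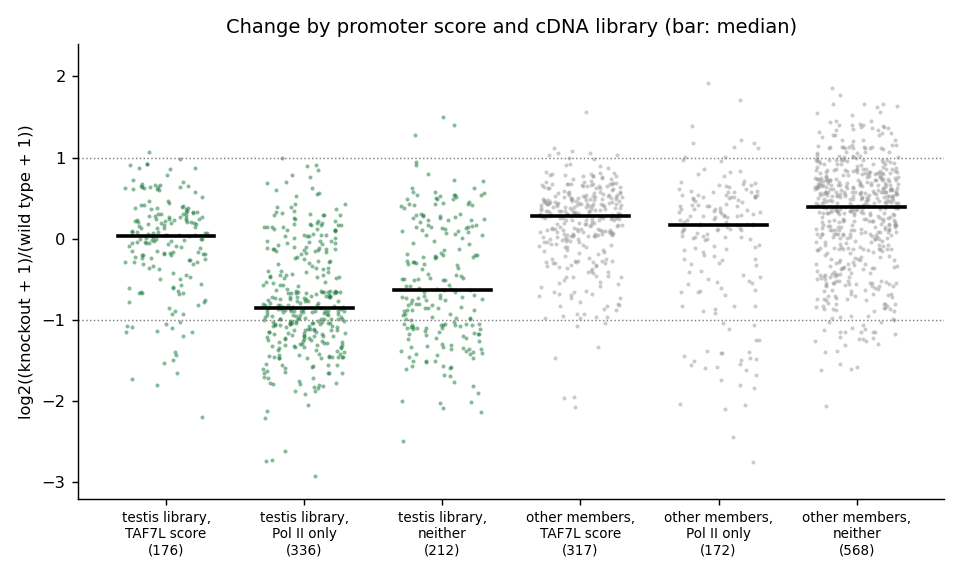
Log2 change (y) of each clone-named transcript in 6 classes (x) given by promoter score and by cDNA library, 1 point each, with a bar at the median and dotted lines at 2-fold. The medians are -0.86 and -0.63 for testis library transcripts with Pol II alone and with neither score, and 0.04 with a TAF7L score.

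The transcripts with a TAF7L promoter score that were nonetheless lower were few, and those named here were chosen after their values were seen. AI507597 at chr4:141170285-141171519 was at 286 ± 15.8 and 85.8 ± 6.55, with 36.3 for TAF7L and 225 for Pol II. AK006282 (Smkr-ps) was at 108 ± 8.23 and 37.7 ± 5.40, with 54.9 and 350. BC051628 was at 149 ± 7.79 and 70.0 ± 6.44, with 67.3 and 439. Among the 8 that were higher, BC049730 was at 33.4 ± 3.95 and 74.1 ± 6.26, with 77.4 and 432.

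Promoter sequence differed with the scores in the 270 clone-named transcripts whose length matched a RefSeq entry to within 1%. In 75 with a TAF7L score the median was 60.3% G and C and 19 CpG in 300 bases, as in the GC-rich AK016511 promoter printed above. In 123 with Pol II and no TAF7L it was 49.3% and 4 CpG, and in 72 with neither 46.5% and 3, against 52.7% and 7 over all 32851 promoters in the RefSeq table. The GC box was present in 60.0%, 13.8% and 11.1% of these 3 classes and in 35.7% of all promoters. The TGACG core was present in 44.0%, 20.3% and 4.17%, against 20.8% of all. The full element TGACGTCA, which holds the core on both strands, was present in 8.00%, 2.44% and 0 of 72, against 1.79%. CCAAT was at 42.7%, 48.0% and 47.2%, against 37.4%, and TATAAA at 6.67%, 6.50% and 15.3%, against 13.6%. Base composition alone changes how often such short runs occur, and its part was not tested.

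The X chromosome and mitochondrial DNA held few clone-named transcripts. Of 24 on the X chromosome, 3 were lower and 1 higher. Those lower were AK019796, AK006997 (1700084M14Rik, 136 ± 9.77 and 32.9 ± 5.26) and AK183986 (1908 ± 391 and 818 ± 257), the last 113 bases long. The mitochondrial transcripts AK141672 (439 ± 28.9 and 670 ± 45.4) and AK140265 (63.4 ± 6.60 and 107 ± 8.74) had the highest changes of the 6, at 0.61 and 0.75.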

How the data were processed

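RNA from wild-type and Taf7l knockout testis and TAF7L, Pol II and IgG ChIP were sequenced in 1 library each. The authors deposited a signal per transcript for each RNA library on an unstated scale. Its standard deviation is given without saying what it was taken over. Bowtie, TopHat and Cufflinks and the build mm9 are named in the submitters' processing notes. The deposited log2 ratio of wild type over knockout matched the signals within 0.02 in 100% of passing rows, with a pseudocount of 0.001, and was otherwise not used. The deposited ratio of standard deviation to mean was not used. For TAF7L and for Pol II, the authors deposited 1 score per transcript in each of 3 position classes, with no definition, and IgG had no column.

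Python 3.11 with pandas 2.3.3 was used to add a pseudocount of 1, take log2 of knockout over wild type, and call at least 2-fold. Call counting was tested on simulated signals. Starts in the deposited table count from 0 and were raised by 1, since 8512 symbol rows then had their RefSeq length. Scores were joined by accession in all 1781 members. RefSeq entries (GRCm38.p6) supplied names and promoters only. With 1 library a group, no test was run.

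The members, the lists and the rule for names were chosen with earlier results of these data known. The rule takes the highest signals, the largest changes, the highest scores, names with 3 or more rows and the rows nearest each limit. In all, 117 groups of rows were tabulated, and only some are reported. The splits by cDNA library, span, RefSeq class, identical values and promoter sequence were added after values were seen. Alternatives covered pseudocount, filters, 1 row per name, rescaling, score limits, overlap and span. One library per group means that the depth, known only as 100 to 200 M reads, gives no error between animals.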

Additional observations from a re-analysis of the deposited data

How the results depend on the processing

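Of 51 alternatives, 32 kept their value within 1.5 times or within the technical spread, 16 moved and 3 reversed. That spread, 0.45 on the log2 scale, was defined after the values were seen and is wide beside the median of 0.06, so it says little of the median's stability. The reversed values were all of that median, at -0.03 with a mean signal of at least 5, -0.32 after rescaling the knockout library, and -0.35 after rescaling with a span of at least 200 bases. The count of higher transcripts (87) became 140, 163 and 51 with pseudocounts of 0.1, 0.001 and 5. It became 17 after rescaling, 51 with a span of at least 200 bases and 7 with both. With no limit on the spread it became 321 of 2378 rows, beside 362 lower. The count of lower transcripts (277) became 137 with a pseudocount of 5, 467 after rescaling and 458 after rescaling with a span of at least 200 bases. The count of lower testis library transcripts (215) became 98 with a pseudocount of 5 and 341 after rescaling. TAF7L promoter scores (493) became 258 at or above the median score and 276 with a mean signal of at least 5. Pol II promoter scores (997) became 414 and 572. A cut at the median of all scored rows lowers these counts by construction. The count of overlaps stayed within 1.5 times, at 525 to 1004. The span, identical-value and testis library alternatives were chosen after seeing the data. A pseudocount compresses weak signals and a stricter filter leaves fewer rows, while the cause of the other shifts was not tested. No paired analysis was possible because each group is 1 pooled library. Leaving out a replicate was not possible for the same reason.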
